A study of Mus musculus with 2 samples.

Results

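The conjugating enzymes of phase II detoxification were examined in messenger RNA of villi purified from mouse small intestine. They are the cytosolic glutathione S-transferases (Gst, classes alpha, kappa, mu, omega, pi, theta and zeta), the microsomal glutathione S-transferases (Mgst), the UDP-glucuronosyltransferases (Ugt, families 1 and 2) and the sulfotransferases (Sult). Members were taken by gene symbol alone, and where a symbol had several rows the row with the highest mean was kept. This gave 55 genes of 20720 in the table, from 56 rows: 20 Gst, 3 Mgst, 16 Ugt and 16 Sult genes.

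These enzymes attach a polar group to reactive or fat-soluble compounds. Gst and Mgst enzymes use glutathione, Ugt enzymes use UDP-glucuronic acid inside the endoplasmic reticulum, and Sult enzymes use the sulfate donor PAPS in the cytosol. In the small intestine they act on compounds from food, drugs, bile and bacteria as these cross the enterocyte, and the conjugates are carried out by ABC transporters.

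The control library (titled wild type) came from C57BL/6 mice with the genotype Rosa26-CreERT2 Cdkn2a-/-. The second library, called dKO-labelled (double knockout) below, was labelled Rosa26-CreERT2 Cdkn2a-/- Ring1a-/- Ring1bf/f. Ring1a (Ring1) and Ring1b (Rnf2) are the ubiquitin ligases of Polycomb repressive complex 1. Both genotypes thus lacked Cdkn2a and carried an inducible Cre recombinase, and both received 3 tamoxifen injections, with villi taken at 6 days. The Rosa26 locus is active in most tissues, so the Cre is not specific to the epithelium. Where recombination took place was not measured. The labels give neither the ages nor the number of animals behind a library. Each genotype had 1 library, so every difference below is between 2 libraries, has no replicate check and was given no test between genotypes.

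The deposited values are normalised read counts from which whole reads were recovered, 775827 over all rows for the control and 1058196 for the dKO-labelled library. Each fold is the ratio of a gene's reads after division by 1.11, the ratio of the size factors behind the deposited values. Brackets hold 95% Clopper-Pearson intervals, which cover counting error only. A gene was measured at a mean normalised count of at least 20, and was called higher or lower when log2((dKO + 1)/(control + 1)) reached 2-fold. The median log2 ratio of the 6000 measured genes was 0.51, a fold of 1.42, so directions near 1-fold follow the scaling. Of the targeted genes, Ring1 had 10 and 10 reads, a fold of 0.901 (0.337 to 2.41), and Rnf2 59 and 82, a fold of 1.25 (0.886 to 1.78). Both intervals hold 1 and the median fold of 1.42, so no direction is given for either. Whole-transcript counts do not show which exons are missing.

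The labelled tissue was checked on marker genes. All 9 enterocyte markers had reads in both libraries, in sum 8588 (control) and 11741 (dKO-labelled), a fold of 1.23 (1.2 to 1.27). Of these 9, Sis (37 and 357 reads, 8.7-fold) and Lct (184 and 847, 4.15-fold) were called higher and 0 lower. Of the 6 hepatocyte markers, Ahsg and Serpina1a were at 0 in both libraries, and the sum was 12 and 20 reads. Other marker lists also differed. All 3 measured fibroblast genes of 5 listed in the table were called higher (22 and 186 reads in sum, Dcn at 0 in both), as were all 3 measured smooth muscle genes of 5 (36 and 170 reads). Of 4 colonocyte markers the 2 measured, Car4 and Slc26a3, were higher (57 and 227 reads in sum over the list, Car1 at 0 in both). Except for Tagln and Car4, these genes had a control value under 20 and passed the filter through the dKO-labelled library. Their calls were thus largely set by the filter. Of all measured genes 26.2% were called higher, and 18.1% of those with the control at 20 or more. Summed reads of the other epithelial lists also differed, with 223 and 59 for tuft cells (0.238-fold, Dclk1 at 0 in both), 3700 and 2525 for goblet cells (0.615-fold), 1564 and 2880 for Paneth cells (1.66-fold), 1014 and 2136 for enteroendocrine cells (1.9-fold) and 8 and 63 for stem cells (7.1-fold, no gene measured). The immune list had 49 and 74 reads, with Ptprc at 0 in both. Xist had 80 and 1 reads and the Y-linked Ddx3y 0 and 131, so sex and genotype cannot be told apart. The part of these shifts in the results below was not tested, and in bulk RNA fewer cells of a type and less RNA per cell cannot be told apart.

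The mu class is shown first in sequence, because its members had the widest range of folds and can share reads. The lines give the first 90 coding bases of 6 mu genes, 5′ to 3′, from GENCODE M21 transcripts (build GRCm38), with capitals where a base differs from Gstm1.
Gstm1: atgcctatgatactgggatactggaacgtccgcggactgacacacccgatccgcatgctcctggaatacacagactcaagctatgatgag
Gstm2: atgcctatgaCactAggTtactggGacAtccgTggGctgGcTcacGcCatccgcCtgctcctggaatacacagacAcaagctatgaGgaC
Gstm3: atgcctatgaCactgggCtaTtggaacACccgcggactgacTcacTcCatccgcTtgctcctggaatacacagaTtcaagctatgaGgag
Gstm6: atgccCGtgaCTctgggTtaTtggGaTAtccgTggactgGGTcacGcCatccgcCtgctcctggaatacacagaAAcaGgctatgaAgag
Gstm7: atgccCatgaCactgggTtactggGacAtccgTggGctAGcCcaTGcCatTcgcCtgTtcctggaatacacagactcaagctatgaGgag
Gstm4: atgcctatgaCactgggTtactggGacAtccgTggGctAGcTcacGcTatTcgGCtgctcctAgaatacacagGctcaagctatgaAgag
Against Gstm1, these 90 bases held 15 differences in Gstm2, 11 in Gstm3, 20 in Gstm6, 17 in Gstm7 and 17 in Gstm4. Over the whole coding sequence of 654 bases, Gstm3 was 89.4% and Gstm2 85.9% identical to Gstm1, while Gstm5 was 72.1% identical over the bases that aligned. Of all windows of 50 bases in the transcript, 28.8% for Gstm3, 23.1% for Gstm1, 11.8% for Gstm6 and 9.36% for Gstm2 were also present in a transcript of another gene, pseudogenes included. For Gstm5 and Gstm7 the share was 0%. No label says how the authors' counting treated reads in such windows, so the values of Gstm1, Gstm2, Gstm3 and Gstm6 are uncertain to that extent.

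Across the whole set, the members were higher in the dKO-labelled library. Their summed reads were 2039 (control) and 4970 (dKO-labelled), or 0.264% (0.252 to 0.275) and 0.471% (0.458 to 0.484) of the reads kept, a fold of 2.20 (2.09 to 2.31). Reads were found for 39 of the 55 members, and 34 of these (87.2%) had a higher normalised count in the dKO-labelled library, against 70.9% of all genes with reads. The other 5, Gstm4, Gstt4, Sult1c2, Ugt1a6a and Ugt2b38, had at most 2 reads in either library.

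Of the 55 members, 25 were measured. At 2-fold, 21 of them were higher and 0 lower, against 26.2% of all measured genes higher and 4.18% lower. This count is raised by the filter itself, since 10 of the 25 had a control value under 20 and passed through the dKO-labelled library. Among the 15 members with a control value of at least 20, 11 were higher and 0 lower, against 18.1% and 5.72% of all genes at that level. With upper-quartile scaling, 14 of the 25 were higher and 0 lower, where 584 of all measured genes were higher and 780 lower. Relative to the median of the measured genes, 15 of the 25 were at least 2-fold higher and 0 lower, against 11.8% and 10.4%. For the 15 with the control at 20 or more, these counts were 5 and 0, against 5.78% and 13.5%. The median log2 ratio was 1.81 over the 25 and 1.26 over the 15. Gsto1, Gsta4, Sult1b1 and Sult2b1 were measured and not called.

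**Figure D1:**
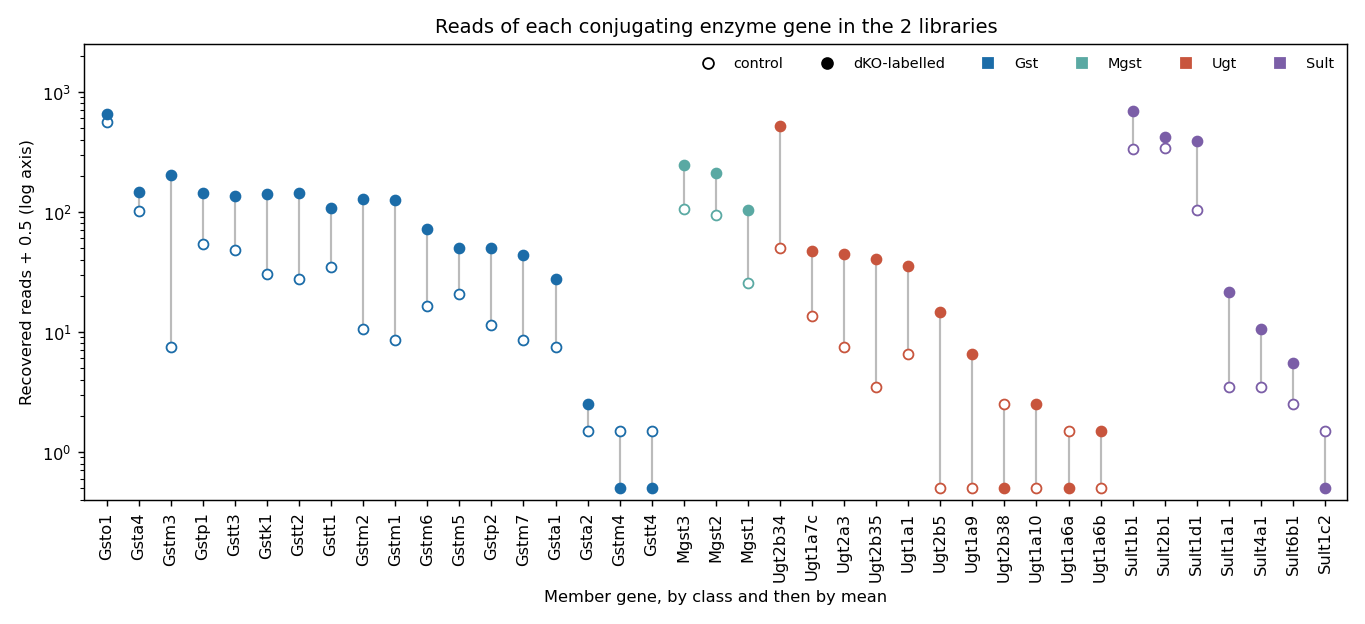
Recovered reads plus 0.5 (log axis) of the 39 conjugating enzyme genes with reads, in the control library (open circles) and the dKO-labelled library (filled circles), coloured by class. Gsto1 and Sult2b1 lie almost level in both libraries, while Gstm3 (7 and 202 reads) and Ugt2b34 (49 and 519) are far apart.

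Within the Gst class, the mu genes stood furthest from the control. Mu enzymes conjugate glutathione to epoxides and other electrophiles. Gstm3 (NM_010359) had 7 control reads and 202 dKO-labelled reads, a fold of 26.0 (12.4 to 65.5). Gstm1 (NM_010358) had 8 and 126 reads, a fold of 14.2 (6.99 to 33.6). Gstm2 (NM_008183) had 10 and 128 reads, a fold of 11.5 (6.07 to 24.6). All 3 went from at most 10 reads to over 100, and their intervals overlap one another.

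The remaining mu genes were higher by less. Gstm7 had 8 and 43 reads, a fold of 4.84 (2.25 to 11.9), and Gstm6 had 16 and 72, a fold of 4.06 (2.34 to 7.47). Gstm5, the mu gene with the most control reads, had 20 and 49 reads, a fold of 2.21 (1.29 to 3.92), and its ratio was under 2-fold relative to the median gene. Gstm4 had 1 and 0 reads. In sum the 7 mu genes had 70 and 620 reads, a fold of 7.98 (6.23 to 10.4), and the interval of Gstm3 lies above that of Gstm5.

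The mu genes form a cluster on mouse chromosome 3, and the RefSeq annotation of GRCm38.p6 lists them in the order Gstm5, Gstm7, Gstm6, Gstm3, Gstm2, Gstm1 and Gstm4. The highest folds belonged to the neighbours Gstm3, Gstm2 and Gstm1. Gstm4, the next gene, was near 0 in both libraries, and Gstm5 at the far end had the lowest fold of those measured.

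**Figure D2:**
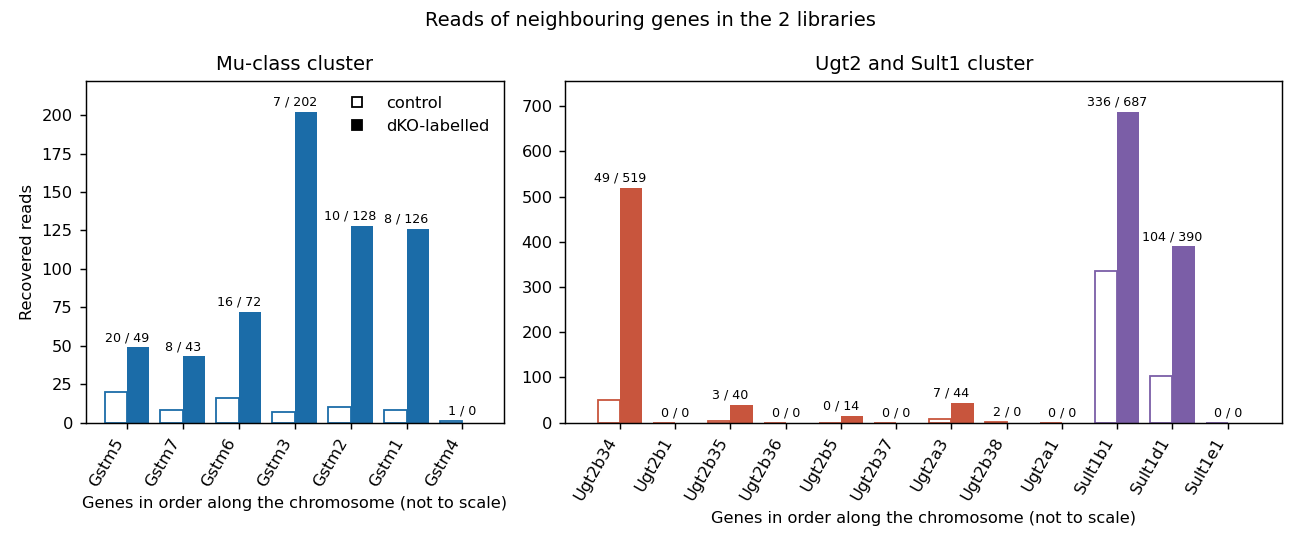
Recovered reads (linear axis) of neighbouring genes in their order along the chromosome, for the mu-class cluster and for the cluster of Ugt2 and Sult1 genes, with open bars for the control and filled bars for the dKO-labelled library and both counts printed above. In the mu cluster the tallest filled bars are the neighbours Gstm3, Gstm2 and Gstm1 (202, 128 and 126 reads), and Gstm4 beside them has 1 and 0.

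The upstream sequences of these genes are shown because neighbouring members were higher together. CpG-rich starts are common among genes bound by Polycomb complexes. Lines give the bases before the start of transcription, 5′ to 3′, from the RefSeq promoter table (GRCm38.p6, not the mm9 build of the deposited files), with CpG dinucleotides in capitals. They end at the more upstream of the RefSeq and GENCODE starts.
Gstm3, chr3:107969284-107969424, minus strand: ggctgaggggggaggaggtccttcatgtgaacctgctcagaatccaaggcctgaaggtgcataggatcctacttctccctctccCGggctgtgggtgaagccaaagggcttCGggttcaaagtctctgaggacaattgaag
Gstm2, chr3:107986454-107986670, minus strand: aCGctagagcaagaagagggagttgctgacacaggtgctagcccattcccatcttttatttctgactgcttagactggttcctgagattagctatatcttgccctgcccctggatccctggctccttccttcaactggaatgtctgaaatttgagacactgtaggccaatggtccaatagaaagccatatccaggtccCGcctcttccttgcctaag
Gstm1, chr3:108017974-108018223, minus strand: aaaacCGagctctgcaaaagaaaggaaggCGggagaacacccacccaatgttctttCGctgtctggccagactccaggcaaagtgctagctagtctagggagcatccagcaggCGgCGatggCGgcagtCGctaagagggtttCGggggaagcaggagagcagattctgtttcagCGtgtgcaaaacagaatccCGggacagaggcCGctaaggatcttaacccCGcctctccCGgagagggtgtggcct
Gstm5, chr3:107895604-107895820, plus strand: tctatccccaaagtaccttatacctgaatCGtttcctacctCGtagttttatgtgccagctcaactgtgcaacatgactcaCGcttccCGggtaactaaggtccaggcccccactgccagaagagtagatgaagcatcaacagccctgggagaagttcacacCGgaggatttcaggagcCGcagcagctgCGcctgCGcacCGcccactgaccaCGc
Ugt2b34, chr5:86906938-86907187, minus strand: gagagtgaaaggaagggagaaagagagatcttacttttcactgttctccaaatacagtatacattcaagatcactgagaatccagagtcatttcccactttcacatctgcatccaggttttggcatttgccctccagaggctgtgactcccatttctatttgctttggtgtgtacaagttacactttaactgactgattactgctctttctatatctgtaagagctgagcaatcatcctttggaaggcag
The stretches held 2 CpGs in 141 bases for Gstm3, 2 in 217 for Gstm2, 13 in 250 for Gstm1, 10 in 217 for Gstm5 and 0 in 250 for Ugt2b34. These stretches differ in length. Over 300-base windows (250 before and 50 after the start), 49 of the 55 members matched a promoter. For each member the promoter nearest its GENCODE start was taken, with no limit on distance (853 bases for Gstt1). The comparison set instead holds all distinct promoters, alternative ones of a gene included. In these windows Gstm3 held 5 CpGs, Gstm2 3, Gstm1 14, Gstm5 18 and Ugt2b34 0. A CpG observed-to-expected ratio of at least 0.6 was found in 6 of the 49 (12.2%), against 36.1% of 32544 promoters, and the medians were 0.213 and 0.387. Polycomb binding was not measured here, and a link between CpG content and fold was not tested.

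Motifs were searched on both strands of the same windows. The core of the antioxidant response element bound by NRF2, TGACNNNGC, was found in 2 of 49 member promoters (4.08%), those of Gstm5 and Mgst1, against 12.4% of all promoters. The core of the xenobiotic response element bound by the aryl hydrocarbon receptor, GCGTG, was in 8 (16.3%), Gstm1 among them, against 32.6%. Matches of these motifs can overlap. In Gstm5, the match TGACCACGC holds CACGC, which is GCGTG on the other strand. A partial site of the epithelial homeobox factor HNF1, GTTAAT, was in 10 (20.4%) against 7.13%, and 5 of the 10 belonged to Ugt genes. A TATA box, TATAAA, was in 9 (18.4%) against 13.6%. Among the 23 promoters of measured members, TGACNNNGC was in 2, GCGTG in 6, GTTAAT in 3 and TATAAA in 4. Most matches of GTTAAT thus belonged to members that were not measured. The base content of the promoters was not allowed for. A match is a run of letters in this window and no evidence of a site in use.

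Other Gst classes were higher by 2- to 5-fold or nearly level. Gsto1, an omega-class thioltransferase that also reduces dehydroascorbate, was the most abundant member, with 476 reads per kb of transcript in the control. It had 563 and 656 reads, a fold of 1.05 (0.937 to 1.18). Its neighbour Gsto2 had 0 reads in both of its rows. Gsta4, an alpha-class enzyme for the lipid peroxidation product 4-hydroxynonenal, had 101 and 147 reads, a fold of 1.31 (1.01 to 1.71). With total-count scaling Gsto1 became 0.854-fold and Gsta4 1.07-fold, so no direction is given for either.

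The theta-class genes, whose products act on small halogenated compounds and sulfate esters among others, were all measured except Gstt4 (1 and 0 reads). Gstt2 had 27 and 142 reads, a fold of 4.74 (3.13 to 7.44). Gstt1 had 34 and 107 reads, a fold of 2.84 (1.91 to 4.30), and Gstt3 48 and 136, a fold of 2.55 (1.83 to 3.63). All 3 intervals lie above the median gene, and 26.0% of the windows of Gstt3 are shared with the gene model Gm20441.

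Gstk1, a kappa-class enzyme of mitochondria and peroxisomes, had 30 and 139 reads, a fold of 4.18 (2.80 to 6.42). Of the pi-class genes, Gstp1 had 53 and 144 reads, a fold of 2.45 (1.78 to 3.42), and Gstp2 11 and 49, a fold of 4.02 (2.06 to 8.56). The pi genes are near copies, so reads may be divided between them. Gstp1 shares 62.3% of its windows with Gstp2. Gstp2 shares 64.3% with Gstp1 and 72.6% with any other gene. Their sum, which does not depend on how reads are divided between these genes, was 64 and 193 reads, a fold of 2.72 (2.04 to 3.67). Shared reads that were dropped or counted for another gene would still change it. The alpha gene Gsta1 fell short of the limit, with 7 and 27 reads and a fold of 3.48 (1.48 to 9.46), and 89.7% of its windows are shared. Gsta2 had 1 and 2 reads. Gstz1, the maleylacetoacetate isomerase of tyrosine breakdown, had 0 reads on the single transcript listed, 1 of 5 curated RefSeq transcripts of the gene.

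The make-up of the Gst class differed between the libraries in a way that does not rest on the scaling. Gsto1 held 59.5% (56.3 to 62.7) of the control's Gst reads and 30.2% (28.3 to 32.2) of those in the dKO-labelled library. The mu genes held 7.40% (5.81 to 9.26) and 28.6% (26.7 to 30.5), and Gstm1, Gstm2 and Gstm3 together 2.64% (1.72 to 3.88) and 21.0% (19.3 to 22.8). The theta genes went from 11.6% (9.65 to 13.8) to 17.8% (16.2 to 19.4), and the alpha genes were at 11.5% (9.56 to 13.7) and 8.11% (7 to 9.34). Without Gsto1, the class had 383 and 1513 reads, a fold of 3.56 (3.18 to 3.99), against 2.07 (1.91 to 2.23) with it.

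**Figure D3:**
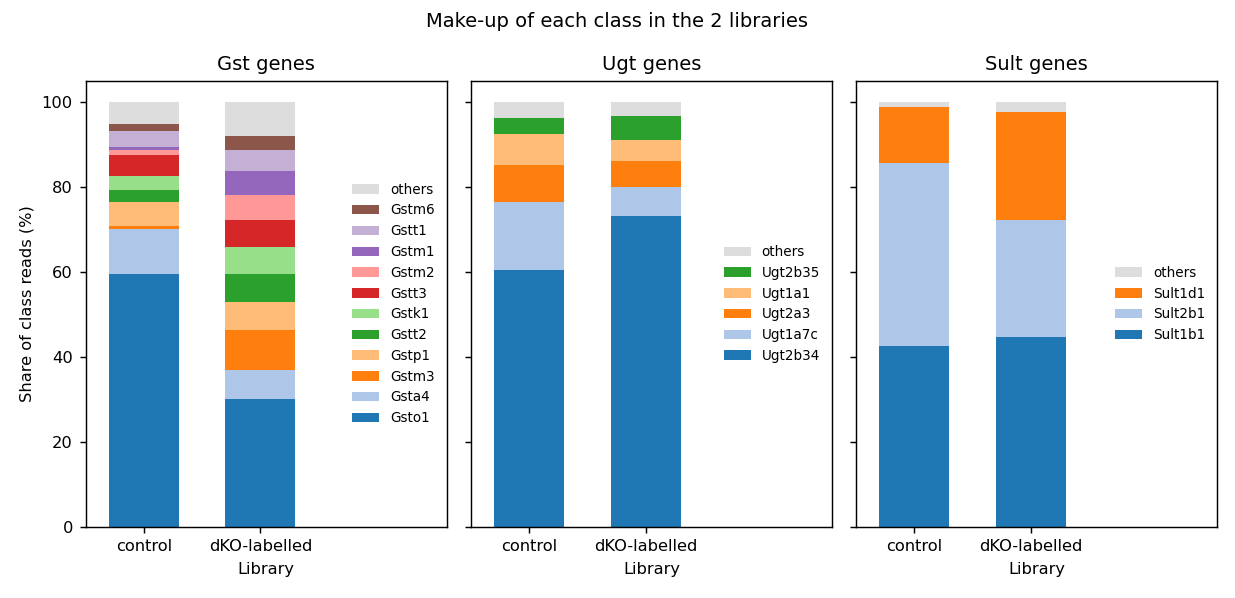
Share of class reads (%) held by each gene in the control and the dKO-labelled library, for Gst, Ugt and Sult genes, with genes that stay under 3% in both libraries joined as others. Gsto1 goes from 59.5% to 30.2% of Gst reads, Ugt2b34 from 60.5% to 73.3% of Ugt reads and Sult2b1 from 43.1% to 27.5% of Sult reads.

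All 3 microsomal genes were measured and called higher, 1 of them relative to the median gene. All had a control value of at least 20, where 18.1% of all genes were higher, and 5.78% relative to the median gene. Mgst1, a membrane glutathione transferase and peroxidase, had 25 and 103 reads, a fold of 3.71 (2.38 to 6.00). Mgst3 had 105 and 246 reads, a fold of 2.11 (1.67 to 2.68). Mgst2, which can form leukotriene C4, had 93 and 209 reads, a fold of 2.03 (1.58 to 2.62), and its log2 ratio of 1.00 lay at the limit of the rule. None of their windows is shared with another gene. Within the class, Mgst1 held 11.2% (7.39 to 16.1) and 18.5% (15.3 to 21.9) of the reads, intervals that overlap.

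The Ugt class had the largest fold of the 4 classes in summed reads, which were 81 (control) and 708 (dKO-labelled), 7.88-fold (6.25 to 10). Its share of all member reads was 3.97% (3.17 to 4.91) and 14.2% (13.3 to 15.2). Of 16 genes 5 were measured, and all 5 were called higher, also relative to the median gene. Of all measured genes, 26.2% were higher, and 11.8% relative to the median gene. Only Ugt2b34 had a control value of at least 20, and the other 4 passed the filter through the dKO-labelled library.

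Family 2 enzymes conjugate steroids, bile acids and many drugs. Ugt2b34 (NM_153598) had 49 and 519 reads, a fold of 9.55 (7.11 to 13.1), and 2.07% of its windows are shared with another gene. It held 60.5% (49.0 to 71.2) of the control's Ugt reads and 73.3% (69.9 to 76.5) of the dKO-labelled library's, intervals that overlap. Per kb of transcript its scaled reads went from 16.1 to 153, which placed it beside Gstp1 (158) and Sult1d1 (145) in the dKO-labelled library.

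Other family 2 genes were low in the control. Ugt2b35 had 3 and 40 reads, a fold of 12 (3.83 to 60.7), and Ugt2a3 7 and 44, a fold of 5.67 (2.53 to 14.9). Ugt2b5 had 0 and 14 reads, and the lower 95% limit of its fold was 2.99. It shares 41.7% of its windows, most of them with Ugt2b38, which had 2 and 0 reads. Ugt2a1, Ugt2b1, Ugt2b36 and Ugt2b37 had no reads. Without Ugt2b34, the Ugt genes had 32 and 189 reads, a fold of 5.32 (3.65 to 8.01).

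Family 1 genes are read from alternative first exons joined to one common set of later exons. The coding sequences of Ugt1a1 and Ugt1a7c were identical over their last 737 bases and differed in the 868 and 856 bases before them. Reads from the common part cannot be assigned to a single family 1 gene, and all windows of Ugt1a6a are shared. Ugt1a1, the bilirubin-conjugating enzyme, had 6 and 35 reads, a fold of 5.26 (2.19 to 15.3), with 58.2% of its windows shared. Ugt1a7c had 13 and 47 reads, a fold of 3.26 (1.73 to 6.57). Ugt1a9 had 0 and 6 reads, Ugt1a10 0 and 2, Ugt1a6b 0 and 1, Ugt1a6a 1 and 0, and Ugt1a2 none. The 7 genes together had 20 and 91 reads, a fold of 4.10 (2.51 to 7.03), as far as reads of the common exons were counted at all.

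Sulfotransferases were higher by less than the other classes in summed reads, 789 and 1535, a fold of 1.75 (1.61 to 1.91). Of 16 genes 3 were measured, all with a control value of at least 20. Of these 3, 1 was called higher, against 18.1% of all genes at that level. Sult1d1, which acts on catecholamines and other amines, had 104 and 390 reads, a fold of 3.38 (2.72 to 4.24). Sult1b1, a phenol and thyroid hormone sulfotransferase, had 336 and 687 reads, a fold of 1.84 (1.62 to 2.11), above the median gene and under 2-fold. Sult2b1, which sulfates cholesterol and other hydroxysteroids, had 340 and 422 reads, a fold of 1.12 (0.968 to 1.29), and was 0.910-fold with total-count scaling, so no direction is given.

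The intervals of these 3 genes do not overlap, and their order holds under any common scaling. In shares of Sult reads, Sult1d1 was at 13.2% (10.9 to 15.7) and 25.4% (23.2 to 27.7), Sult1b1 at 42.6% (39.1 to 46.1) and 44.8% (42.2 to 47.3), and Sult2b1 at 43.1% (39.6 to 46.6) and 27.5% (25.3 to 29.8). Sult1b1 and Sult1d1 follow the Ugt2 genes on the same chromosome, and Sult1e1 beside them, the estrogen sulfotransferase, had no reads.

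Of the low Sult genes, Sult1a1, a phenol sulfotransferase, had 3 and 21 reads, a fold of 6.31 (1.88 to 33.0). Sult4a1, a brain-enriched member, had 3 and 10 reads, a fold of 3.00 (0.774 to 17.0), and Sult6b1 2 and 5. Sult1c2 had 1 and 0 reads. No reads were found in either library for Sult1c1, Sult1e1, Sult3a1, Sult5a1 or for 5 Sult2a genes (Sult2a1, Sult2a3, Sult2a5, Sult2a6 and Sult2a7), which sulfate bile acids in the liver. A count of 0 allows up to 3 reads in a library of this depth.

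**Figure D4:**
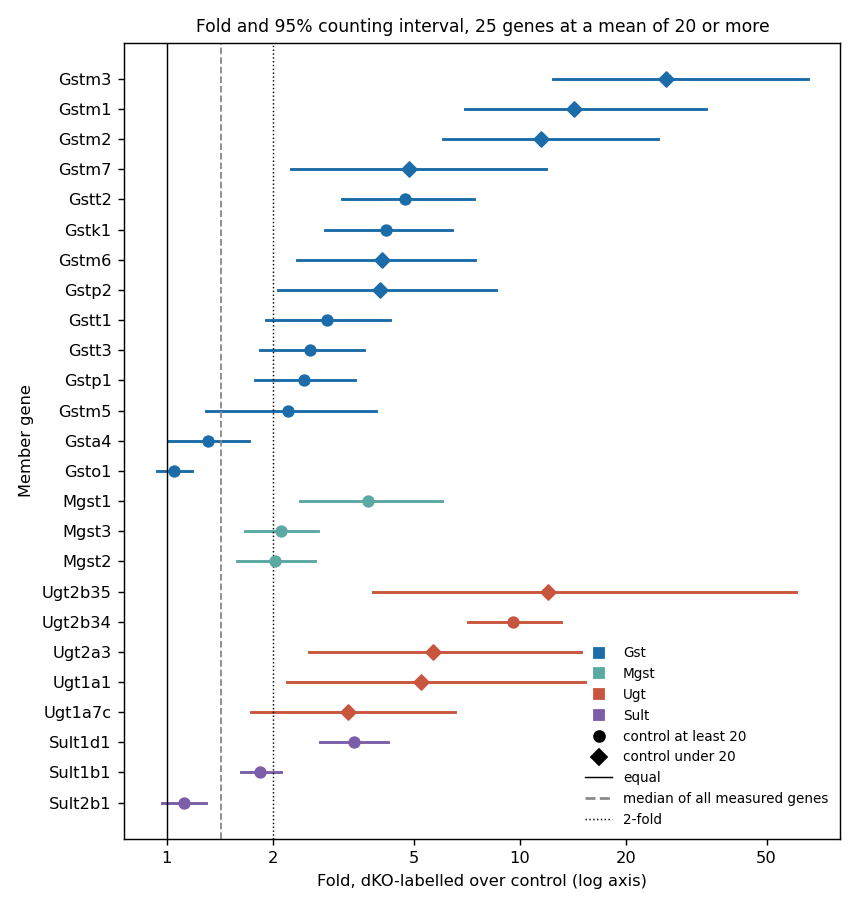
Fold of the dKO-labelled library over the control (log axis) with the 95% counting interval for the 25 measured members, coloured by class, as circles where the control value was at least 20 and diamonds where it was under 20; lines mark equality, the median of all measured genes (1.42) and 2-fold. The intervals of 23 genes lie above 1, those of 21 above the median gene and those of 14 above 2-fold.

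In the control, the per-length order was Gsto1 (476 reads per kb), Sult2b1 (285), Mgst2 (154), Sult1b1 (129), Gsta4 (103) and Mgst3 (95.7). In the dKO-labelled library, with reads divided by 1.11, it was Gsto1 (500), Sult2b1 (319), Mgst2 (312), Sult1b1 (238), Mgst3 (202) and Gstp1 (158). The most abundant members were thus largely shared, while Gstm3 moved from 5.34 to 139 reads per kb and reached the level of Gsta4 (136) and Gstk1 (135).

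The authors' deposited table gives unadjusted DESeq p-values, 0.00451 for Gstm3, 0.0187 for Gstm1, 0.0234 for Ugt2b34 and 0.0264 for Gstm2. These 4 members are the ones under 0.05, against 0.558% of all rows of the table. After Benjamini-Hochberg adjustment over the authors' deposited table the smallest value of any row was 0.392. An exact binomial test of the recovered reads, adjusted over all genes with reads, called 25 of the 39 members with reads higher and 0 lower, against 23% and 4.82% of all genes. It compares the libraries and not the genotypes.

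The related lists are read against the shares of all measured genes, 26.2% higher and 4.18% lower, or 18.1% and 5.72% among genes with a control value of at least 20, where the median log2 ratio was 0.37. Relative to the median gene, the shares of all measured genes were 11.8% higher and 10.4% lower, or 5.78% and 13.5% with the control at 20 or more. None of the lists was tested against the enzymes. Of 11 measured genes of glutathione synthesis and turnover, 4 were higher and 0 lower, with a median log2 ratio of 0.61 beside 0.51 for all measured genes. With the control at 20 or more, 3 of 10 were higher (median 0.54). The 4 were Lap3, a leucine aminopeptidase (94 and 463 reads, 4.44-fold), Ggt6 (22 and 73, 2.99-fold), Gclm, the modifier subunit of the first enzyme of glutathione synthesis (69 and 199, 2.6-fold), and Cth (16 and 43, 2.42-fold). Relative to the median gene, 1 of the 11 was higher and 0 lower, and 1 and 0 of the 10.

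For UDP-glucuronate supply, 2 of 9 measured genes were higher and 1 lower (median 0.56), and 2 and 1 of 8 with the control at 20 or more (median 0.14), near the shares of all genes. Relative to the median gene, 0 of the 9 were higher and 2 lower, and 0 and 2 of the 8. Nme1, a nucleoside diphosphate kinase, had 71 and 223 reads (2.83-fold) and Ugp2, which makes UDP-glucose, 140 and 318 (2.05-fold). Slc35d1, which carries UDP-glucuronic acid into the endoplasmic reticulum, had 93 and 43 reads, a fold of 0.417 (0.283 to 0.604), and the hexokinase gene Hk2 155 and 98 (0.570-fold). Ugdh, named here after its values were seen because it makes UDP-glucuronic acid, had 334 and 548 reads, a fold of 1.48 (1.29 to 1.70), near the median gene.

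For sulfate and PAPS supply, 5 of 11 measured genes were higher and 0 lower (median 0.81), and 3 of 9 with the control at 20 or more (median 0.71). Relative to the median gene, 5 of the 11 were higher and 2 lower, and 3 and 2 of the 9. Papss1, which synthesises PAPS, had 20 and 214 reads, a fold of 9.64 (6.09 to 16.1), and Slc35b2, the PAPS carrier of the Golgi, 27 and 102 (3.41-fold). Tst, a mitochondrial sulfur transferase, had 5 and 127 reads (22.9-fold), and Slc26a3, an anion exchanger abundant in colon, 4 and 51 (11.5-fold). Tst and Slc26a3 passed the filter through the dKO-labelled library.

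In a list of transporters for conjugate export and uptake, 1 of 8 measured genes was higher and 1 lower (median 0.50). Abcb1a had 33 and 134 reads (3.66-fold), Abcc5 74 and 16, a fold of 0.195 (0.106 to 0.338), Abcc3 28 and 64 (2.06-fold, log2 ratio 0.99) and Slc51b 79 and 161 (1.84-fold). Abcc2 (109 and 190, 1.57-fold) and Abcg2 (212 and 197, 0.838-fold), named here after their values were seen, were not called. A list of other conjugating enzymes and related proteins had 1 of 9 measured genes higher and 1 lower (median -0.12). With the control at 20 or more, 0 of 8 were higher and 1 lower (median -0.19). The higher one of the 9 was As3mt, an arsenic methyltransferase (10 and 62 reads, 5.59-fold), which passed the filter through the dKO-labelled library. The lower one was Alox5ap (86 and 37, 0.388-fold), which is no conjugating enzyme but serves 5-lipoxygenase in leukotriene synthesis. Nor are the chloride intracellular channel proteins of the list, Clic1 (751 and 701, 0.841-fold), Clic4 (309 and 241, 0.703-fold) and Clic5 (485 and 429, 0.797-fold). All of these except As3mt had log2 ratios under 0. The list also held Hpgds, a sigma-class glutathione transferase that makes prostaglandin D (21 and 43, 1.85-fold).

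Deconjugating enzymes had 4 of 7 measured genes higher and 0 lower (median 1.28), but 2 of 5 with the control at 20 or more (median 0.50), since Ces2a and Arsa passed the filter through the dKO-labelled library. The 4 were Ces2a (5 and 63 reads, 11.4-fold), Arsa (11 and 46, 3.77-fold), Blmh (58 and 200, 3.11-fold) and Aspa (27 and 76, 2.54-fold). Ces2a is also among the carboxylesterase genes counted below. Gusb, a beta-glucuronidase named here after its values were seen, had 69 and 64 reads, a fold of 0.836 (0.586 to 1.19). Relative to the median gene, 3 of the 7 were higher, and 1 of the 5 with the control at 20 or more. Of 12 measured regulators of conjugation genes, all with a control value of at least 20, 1 was higher and 0 lower (median 0.20). This was Hnf4g, a nuclear receptor of the enterocyte, with 58 and 250 reads (3.89-fold). Nfe2l2, encoding NRF2, had 78 and 175 reads (2.02-fold, just under the rule), Cdx2 127 and 278 (1.97-fold) and Mafg 58 and 33 (0.513-fold).

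**Figure D5:**
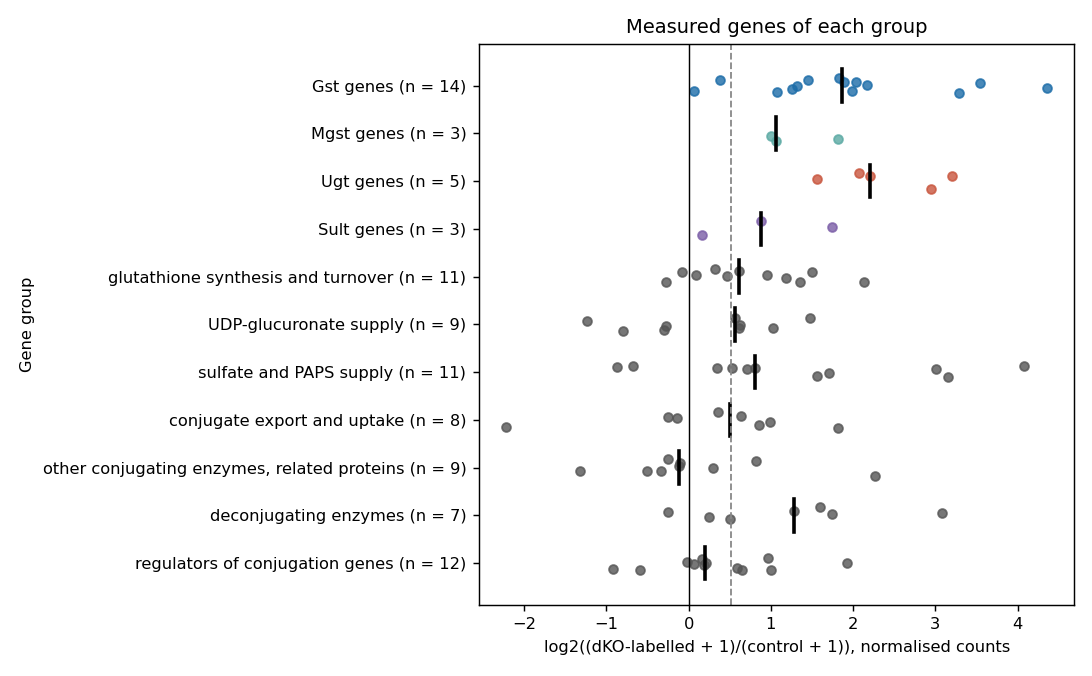
The log2 ratio of normalised counts (pseudocount 1), dKO-labelled over control, of each measured gene (points) in the 4 enzyme classes and 7 related lists, with a black bar at the median of each group, a dashed line at the median of all measured genes (0.51) and a solid line at 0. Many Gst and Ugt points (medians 1.86 and 2.21) are genes with a control value under 20, and with the control at 20 or more the Gst median is 1.29 over 8 genes and the Ugt class holds Ugt2b34 alone.

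For enzymes of the preceding steps, counts read against the same shares of all genes. Of 16 measured cytochrome P450 genes (99 in the table), 10 were higher and 1 lower, and of 29 measured reductase, dehydrogenase and carboxylesterase genes (73 in the table), 19 were higher and 0 lower. With the control at 20 or more, 8 of 14 and 12 of 22 were higher, beside 11 of 15 conjugating enzymes, and the median log2 ratios were 1.13, 1.15 and 1.26. Whether the conjugating enzymes differ from these groups was not tested.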

How the data were processed

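Messenger RNA of villi was analysed from 1 table for the whole series, with 1 library for each genotype. TopHat, DESeq and the mm9 build are named, without versions, in the submitters' processing notes; the counting tool and its strand setting are not stated there. Per the file headers, the 2 signal columns hold base means, that is normalised read counts, over 22040 transcript rows. All values (100%) were whole multiples, within 0.001, of the smallest value of their column (1.0533 and 0.9494), and none was 0. They were read as counts with 1 read added, an inference from the values, and reads were recovered as multiples minus 1. The deposited fold (ratio) and log2 columns were not used beyond the authors' comparison, and the deposited p-value column is unadjusted.

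Members with a mean of at least 20 are given in full, and lower ones were to be named at 10 reads or more in a library. Each list is represented by up to 4 measured genes, those with the largest log2 ratios in size. The text also names genes outside these limits, among them members with fewer reads, Ugdh, Gusb, Abcc2, Abcg2, Clic1 and Clic5. Members and lists were chosen with earlier results of these data known. All 55 members matched a GENCODE M21 transcript for length and shared windows of 50 bases. A planned comparison of proteins was replaced, after the data were seen, by one of transcripts. Promoters and gene order came from RefSeq (GRCm38.p6). The alternatives tried were scaling by total count, upper quartile or TMM (edgeR 4.0.16 in R 4.3.3), a pseudocount of 5, other filters, an interval rule, summed rows and thinning. Added after seeing the data were the median gene set to 0, a filter on the control alone, removal of the added read and a binomial test. Python 3.11.15, pandas 2.3.3, numpy 2.4.6, scipy 1.17.1, Biopython 1.88 and matplotlib 3.10.9 were used. The functions were tested on simulated data.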

Additional observations from a re-analysis of the deposited data

How the results depend on the processing

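Leaving out replicates was not possible with 1 library per genotype. No paired analysis was possible because each genotype has 1 library, so only 1 pair exists. Of 25 measured members, those higher numbered 17 with total counts, 14 with the upper quartile, 15 with TMM, 15 with the median gene set to 0 and 16 of 24 after thinning, and 0 were lower under each. Of all genes, 16.7%, 9.73%, 11.7%, 12% and 16.3% were higher under these settings. They numbered 5 of 9 at a mean of at least 100, 11 of 15 with the control at 20 or more, and 26 of 55 with no filter, where 1 (Ugt2b38, 2 and 0 reads) was lower; the shares of all genes that were higher were 14.8%, 18.1% and 17.9%. Relative to the median gene, 3 of 9 were higher at a mean of at least 100 and 23 of 55 with no filter, with 1 lower.

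Log2 ratios shift by about -0.30 with total counts, -0.64 with the upper quartile and -0.53 with TMM. With the upper quartile, the median log2 ratios were 1.24 for Gst, 0.43 for Mgst, 1.59 for Ugt and 0.24 for Sult genes, and -0.01, -0.08, 0.18, -0.14, -0.76, 0.65 and -0.43 for the lists of glutathione, UDP-glucuronate, PAPS, transport, other conjugating, deconjugating and regulator genes. At a mean of at least 100 they were 0.38 for Gst (3 genes), 3.20 for Ugt (1 gene) and 0.50 for deconjugating genes (3 genes), and with no filter 0.70 for Ugt and -0.07 for Sult genes. Folds of summed reads with total counts, the upper quartile, TMM and the median gene set to 0 were 1.68, 1.33, 1.44 and 1.45 for Gst, 1.83, 1.45, 1.57 and 1.59 for Mgst, and 1.43, 1.12, 1.22 and 1.23 for Sult genes. For Ugt genes they were 5.05, 5.47 and 5.54 with the last 3. Gsta4 was 0.841-, 0.911- and 0.923-fold with the upper quartile, TMM and the median gene set to 0. The folds of Gsto1 and Sult2b1 were also under 1 with these settings and with total counts, and those of the other 22 measured members stayed above 1. Depth limits the low members most: Ugt2b35 rests on 3 control reads and its fold spans 3.83 to 60.7.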
